A study of Homo sapiens with 9 samples.

Results

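HepG2 is an established human liver cancer cell line that keeps many hepatocyte features. The comparison described here sets HepG2 cells given recombinant SPARC at 200 ng/ml against cells left untreated, with RNA taken 24 h later. The extraction protocol in the labels speaks of untreated cells and the 800 ng/ml dose, and the 200 ng/ml arrays were assigned by their own titles. Its members are the 6 arrays that carry these treatment labels, 3 at 200 ng/ml and 3 untreated, of 9 arrays in the series. The other 3 arrays are cells given 800 ng/ml. They enter the shared estimate of spread, the mean signals used to order and choose genes, and a reference for untreated replicate 2. Their own values are given beside some genes. All groups are this 1 line, and by their labels they differ in dose alone. The source of the protein and any vehicle are not given in the labels. Nothing says whether replicates came from separate cultures, and the p-values reflect only how far these samples spread, which may be technical. Biotin-labelled total RNA was read on a 1-colour array, and each value below is a log2 signal or a difference of log2 signals, 1 unit being a 2-fold change.

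SPARC is a secreted, collagen-binding glycoprotein of the matricellular class, which regulates cell adhesion rather than giving the matrix its structure. It is known to loosen focal adhesions, to bind growth factors, and to act on cells through integrins and the scavenger receptor stabilin-1. In liver it is mostly a product of stellate and endothelial cells, so added protein stands for a signal from the neighbours of the hepatocyte.

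With all 9 arrays in the fit, no gene passed the test between cells at 200 ng/ml and untreated cells. The count was 0 of 17687 genes (0% called; limma, smallest adjusted p = 0.966), and 315 genes (1.78%) had an unadjusted p under 0.05 where an even spread of p-values gives 884. The differences were small as well. The 5% and 95% quantiles of the differences were −0.43 and 0.41, and 4 genes differed by more than 1 unit, all of them lower at 200 ng/ml. Over genes, the median half-width of the 95% interval was 1.45-fold. That interval holds for 1 gene before adjustment, and a call after adjustment needs a larger change at the same spread. Changes of that size or smaller were therefore mostly not detectable with these arrays. ADIPOR2, for example, did not pass at a ratio of 1.84 (limma, adjusted p = 0.966). Of all genes, 0.741% were higher and 1.04% lower at an unadjusted p under 0.05.

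Untreated replicate 2 stood apart, and the comparison turned on it. Across transcript clusters it correlated at 0.891 to 0.920 with the other arrays, which correlated with one another at 0.979 or above. When genes were split into 4 equal bins of mean signal, its median deviation from untreated replicates 1 and 3 was 0.38 and 0.56 in the 2 dimmer bins and −0.51 and −0.82 in the 2 brighter ones. The 3 arrays at 200 ng/ml had smaller deviations, of the same sign as in untreated replicate 2 in each bin but the dimmest. From dim to bright bins, replicate 1 was at 0.11, 0.12, −0.06 and −0.11. Replicate 2 was at −0.004, 0.03, −0.04 and −0.05 and replicate 3 at 0.001, 0.07, −0.06 and −0.06, so in the dimmest bin only replicate 1 was clearly away from 0. The arrays at 800 ng/ml stayed between −0.03 and 0.02 in each bin. Replicates 2 and 3 at 800 ng/ml stood apart in another way, with a mean signal of 5.83 in both over 13 neural and glial markers against 4.25 to 4.92 in the other 7 arrays. They enter the fit of this comparison only through the shared spread. A fit of the 6 compared arrays alone also called 0 genes, with 113 at an unadjusted p under 0.05. The labels name no batch, scan or RNA quality value to set beside this shift.

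**Figure D1:**
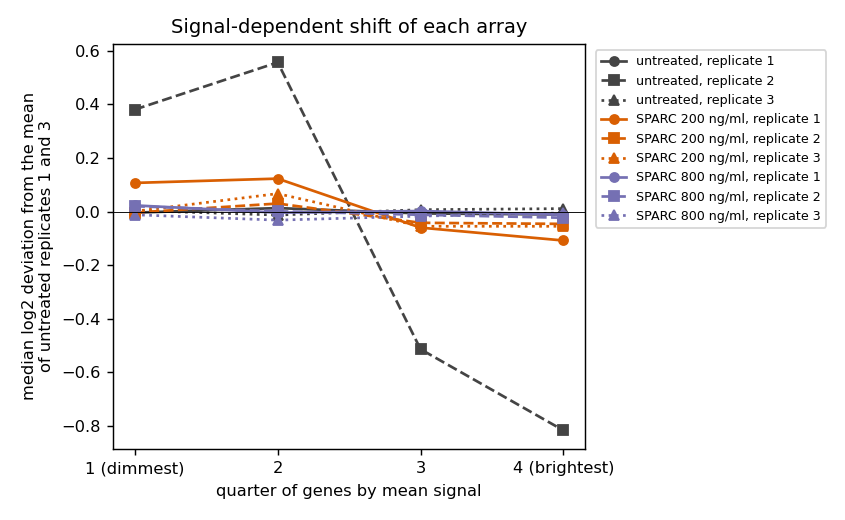
Median log2 deviation of each array from the mean of untreated replicates 1 and 3 (vertical axis) in 4 equal bins of genes ordered by mean signal (horizontal axis, dim to bright), with 1 line per array. Untreated replicate 2 runs from 0.38 to −0.82, and the 200 ng/ml arrays lie within 0.12 of 0, replicate 1 being the farthest in every bin.

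With untreated replicate 2 left out, 0 of 17687 genes passed (0% called; limma, smallest adjusted p = 0.309), while 2002 genes (11.3%) had an unadjusted p under 0.05. Of these, 936 were higher at 200 ng/ml (5.29% of all genes) and 1066 lower (6.03%). The median half-width of the 95% interval was then 1.28-fold. The higher genes were mostly dim and the lower genes mostly bright. From the dimmest to the brightest bin, 239, 416, 240 and 41 genes were higher, while 116, 181, 401 and 368 were lower.

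**Figure D2:**
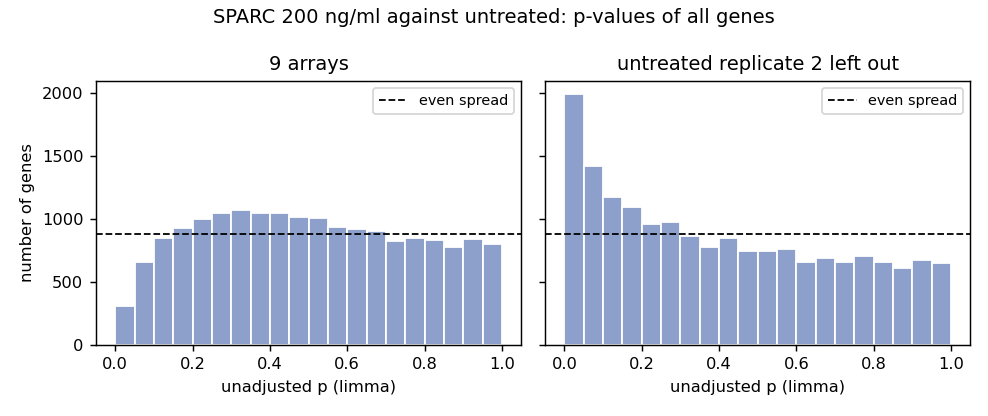
Number of genes (vertical axis) in 20 equal bins of the unadjusted p-value (horizontal axis) for the 200 ng/ml arrays set against the untreated ones, with all 9 arrays on the left and without untreated replicate 2 on the right. The dashed line is an even spread, and the first bin holds 312 genes on the left and 1998 on the right, since p-values that round to 0.05 at 3 digits are drawn in the next bin.

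Most of these 2002 genes lay on the side to which untreated replicate 2 itself deviated. Its deviation was taken here from the mean of the 800 ng/ml arrays, so that no array was shared with the difference. The direction was the same for 1740 of the 2002 genes (86.9%), against 12109 of all 17687 genes (68.5%). It was the same for 88.0% of the higher and 85.9% of the lower genes. The part of the signal-dependent shift in the individual differences below was not tested.

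The 2 fits thus named partly different genes. Without untreated replicate 2, 1802 genes had an unadjusted p under 0.05 that did not have it with all arrays. Of the 315 genes with all arrays, 115 did not have it in the other fit. A difference pointed the same way in both for 9805 genes (55.4%), and 200 genes (1.13%) had an unadjusted p under 0.05 and the same direction in both, 85 of them higher and 115 lower at 200 ng/ml. Some of the genes named below are described in 3 kinds, by where untreated replicate 2 lay, and others by lack of overlap or by list. Not all of the named genes are among these 200. CCL20, of the third kind, had an unadjusted p of 0.118 with all 9 arrays (limma). The kinds follow in that order, and no gene passed the test with all 9 arrays.

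In the first kind the 3 untreated arrays stood together. INPPL1 (TC1100008342.hg.1) encodes SHIP2, a phosphatase that removes the 5-phosphate from the insulin second messenger PIP3. Untreated replicates 1, 2 and 3 had log2 signals of 5.48, 5.54 and 5.79, and the treated arrays had 6.31, 6.24 and 6.12. The groups did not overlap, and the difference was 0.62 ± 0.18 (SE), a ratio of 1.53 (limma, adjusted p = 0.966). Without untreated replicate 2 it was 0.59 ± 0.13 (limma, adjusted p = 0.309). The 800 ng/ml arrays had 6.01, 6.06 and 6.05.

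ITGA5 (TC1200010839.hg.1) encodes the alpha 5 subunit of the main fibronectin receptor. Its signal was 3.85, 4.05 and 4.02 in untreated cells and 3.52, 3.33 and 3.18 at 200 ng/ml. All 3 treated arrays were below all untreated ones, with a difference of −0.63 ± 0.19 (SE) and, without untreated replicate 2, of −0.59 ± 0.15. The signal was low on this array, and no detection calls were used here to say whether it lay above background.

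SHLD1 and ZNF680 were the tightest of this kind. SHLD1, a subunit of the shieldin complex that limits resection at DNA breaks, had 6.58, 6.60 and 6.53 in untreated cells and 6.01, 6.08 and 6.06 at 200 ng/ml. Its difference was −0.52 ± 0.16 (SE) with all arrays and −0.51 ± 0.11 without untreated replicate 2. ZNF680, a zinc finger protein, had 6.67, 6.52 and 6.62 against 5.98, 6.12 and 6.09, a difference of −0.54 ± 0.18. In both genes the gap between the groups exceeded the range within either group, and in both the 800 ng/ml arrays lay between, at 6.18, 6.19 and 6.28 for SHLD1 and at 6.13, 6.44 and 6.37 for ZNF680.

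In the second kind untreated replicate 2 lay farther from the treated arrays than its fellows did, which enlarged the difference. ADIPOR2 (TC1200006472.hg.1), a receptor for the fat-cell hormone adiponectin, had 6.81, 6.23 and 7.13 in untreated cells and 7.43, 7.66 and 7.72 at 200 ng/ml. The groups did not overlap, and the difference was 0.88 ± 0.23 (SE), a ratio of 1.84. It was 0.63 ± 0.15, a ratio of 1.55, without untreated replicate 2. GPC4, a heparan sulfate proteoglycan of the cell surface, had 5.05, 5.80 and 4.67 against 4.22, 4.38 and 4.32. Its difference was −0.87 ± 0.26, and −0.56 ± 0.15 without that array.

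AMPD3, an AMP deaminase of purine metabolism, had 4.73, 5.04 and 4.49 in untreated cells and 3.94, 3.88 and 4.21 at 200 ng/ml. Its difference was −0.74 ± 0.21 (SE). DCXR, a reductase of xylulose and of dicarbonyl sugars, had 9.91, 9.30 and 9.96 against 10.48, 10.43 and 10.42, a difference of 0.72 ± 0.21 that was 0.51 ± 0.13 without untreated replicate 2. Both genes showed no overlap between groups. The remaining genes among the 10 smallest p-values were FAXC, VIM-AS1 and TSC22D4, with −0.85 ± 0.22, −0.85 ± 0.25 and −0.68 ± 0.21, and AZI2, with 0.71 ± 0.21. In AZI2 untreated replicates 2 and 3 were level, at 3.93 and 3.92. VIM-AS1 is an antisense neighbour of the vimentin gene.

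Over all genes, 1234 (6.98%) had groups without overlap with all 6 arrays, 693 higher (3.92%) and 541 lower (3.06%) at 200 ng/ml. Groups this small also separate by random order alone in some genes, so a lack of overlap does not by itself mark a difference. Among the brighter of these, the 12 with the highest positive difference without untreated replicate 2 had 0.45 to 0.64 in that fit. They included, beside ADIPOR2, INPPL1 and DCXR, the actin-oxidising enzyme MICAL2 (0.53 ± 0.18 SE), the small Maf transcription factor MAFF (0.46 ± 0.12), the forkhead factor FOXF1 (0.45 ± 0.14) and SLC27A5, which activates bile acids for conjugation (0.64 ± 0.29). SLC27A5 had 5.94, 6.08 and 5.21 in untreated cells against 6.25, 6.22 and 6.17, so its difference rested mostly on untreated replicate 3. Also in this set were TOR4A, LINC00482, COMTD1, FRYL and LRRC75B. MAFF had 6.43, 6.86 and 6.54 in untreated cells against 7.04, 6.91 and 6.90, so untreated replicate 2 was the untreated array nearest to the treated ones.

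The 12 with the lowest negative difference had values of −0.68 to −0.49 without untreated replicate 2. GET1, a receptor subunit for the insertion of tail-anchored proteins into the endoplasmic reticulum, had 7.69, 7.10 and 7.42 in untreated cells and 6.66, 6.94 and 7.01 at 200 ng/ml, a difference of −0.68 ± 0.14 (SE). APPL2, an endosomal adaptor that binds the adiponectin receptors, had 6.86, 6.39 and 6.69 against 6.20, 6.14 and 6.23, a difference of −0.58 ± 0.13. RRP8, a methyltransferase of ribosomal RNA, had −0.59 ± 0.21, and SLC30A10, a manganese exporter, had −0.53 ± 0.15. RAB33B, B4GALT4, ZNF707, ZNF17, SIMC1 and DTD2 completed the set with SHLD1 and ZNF680.

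**Figure D3:**
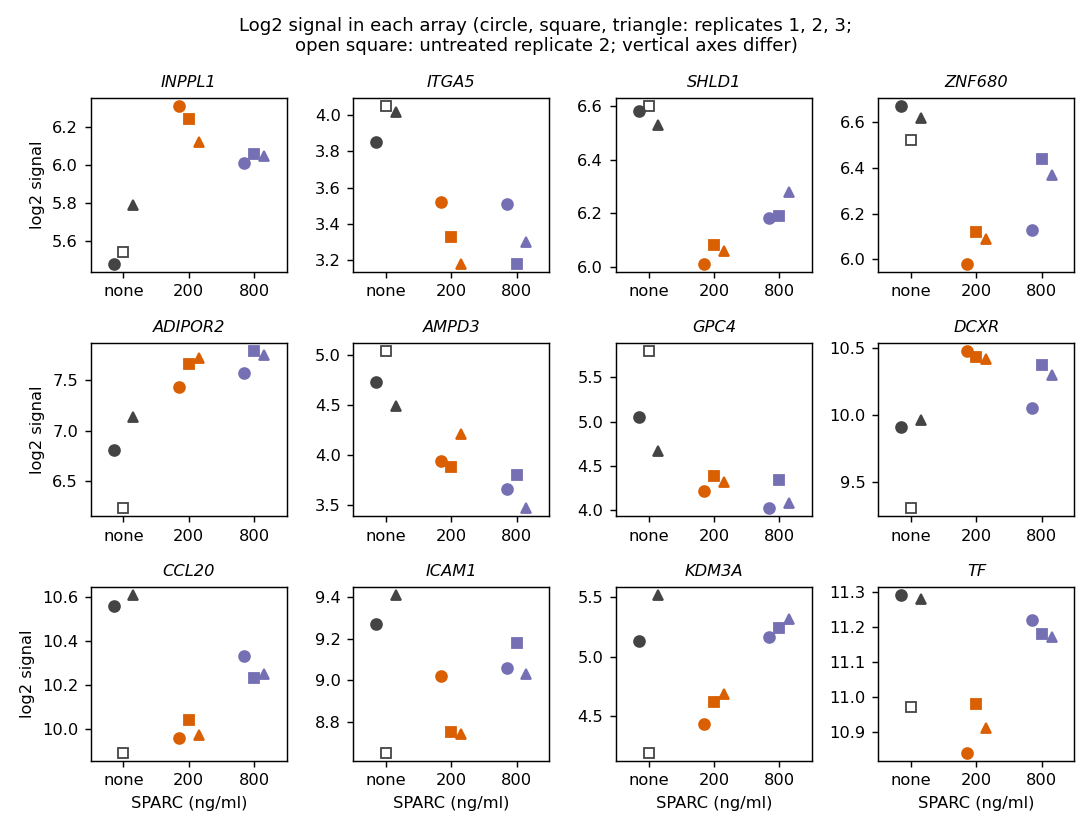
Log2 signal (vertical axis, a different range in each panel) of 12 genes in each of the 9 arrays by SPARC dose (horizontal axis); circles, squares and triangles are replicates 1, 2 and 3, and the open square is untreated replicate 2. In the top row the 3 untreated arrays stand together, in the middle row the open square lies on the far side from the treated arrays, and in the bottom row it lies beside the 200 ng/ml arrays.

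In the third kind untreated replicate 2 lay beside the treated arrays, so the difference appeared when it was left out. CCL20 (TC0200010980.hg.1), the chemokine that attracts CCR6-bearing lymphocytes and dendritic cells, had 10.56 and 10.61 in untreated replicates 1 and 3 and 9.96, 10.04 and 9.97 at 200 ng/ml. Untreated replicate 2 had 9.89. The 800 ng/ml arrays had 10.33, 10.23 and 10.25, between the treated and the 2 untreated arrays. The difference was −0.36 ± 0.22 (SE) with all arrays and −0.60 ± 0.11 without untreated replicate 2, a ratio of 0.661 (limma, adjusted p = 0.309).

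A variance prior that follows the signal, together with a robust fit, made CCL20 pass without untreated replicate 2 (limma, adjusted p = 0.000917). In that fit 28 genes passed (0.158% of all genes), 22 lower and 6 higher at 200 ng/ml. For 27 of the 28, DCXR being the exception, untreated replicate 2 deviated to the same side as the 200 ng/ml arrays. With all 9 arrays the same prior called 0 genes.

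The genes named from that fit were chosen after their values were seen. TF, transferrin, the iron carrier that hepatocytes secrete, had 11.29 and 11.28 in untreated replicates 1 and 3, 10.97 in replicate 2, and 10.84, 10.98 and 10.91 at 200 ng/ml. Its difference without untreated replicate 2 was −0.37 ± 0.11 (SE) in the unmodified fit. HHEX, a homeobox factor needed for liver development, had 7.84 and 7.91 against 7.40, 7.25 and 7.21, with untreated replicate 2 at 6.74. ICAM1, the ligand by which leukocytes adhere, had 9.27 and 9.41 against 9.02, 8.75 and 8.74, with untreated replicate 2 at 8.65.

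Also among the lower genes were SNRPD3, SRP14, TOMM5, MTCH2 and GRPEL1. SNRPD3 is a core protein of the spliceosomal particles, SRP14 belongs to the signal recognition particle, and TOMM5, MTCH2 and GRPEL1 act at the mitochondrial membranes or in import. H2AZ2, a histone variant, had 7.90 and 7.92 in untreated replicates 1 and 3 and 7.30, 7.30 and 7.28 at 200 ng/ml, with 6.45 in untreated replicate 2. The higher genes, beside DCXR, were TMEM132A, BHLHA15, BTNL9, MAG and XYLT1. BHLHA15, a transcription factor of secretory cells, had 8.20 and 8.33 against 8.84, 8.74 and 8.88, and untreated replicate 2 had 8.96.

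The smallest p-values of the unmodified fit without untreated replicate 2 belonged to genes of the same kind. XYLT1, the enzyme that starts glycosaminoglycan chains on proteoglycans, had 3.70 and 3.57 in untreated replicates 1 and 3, 5.77 in replicate 2, and 4.82, 4.84 and 4.45 at 200 ng/ml. Its difference was 1.07 ± 0.15 (SE), and 0.36 ± 0.46 with all arrays. The signals of XYLT1 and BAALC-AS2 in untreated replicates 1 and 3 were in the range of the dimmest bin, where it is not known here whether they lay above background. CLDN14, a claudin of tight junctions, had 0.89 ± 0.13 and CGB1, a chorionic gonadotropin subunit gene with near-identical copies whose probes can bind more than 1 of them, had 0.73 ± 0.11. BAALC-AS2 had 0.84 ± 0.11, and ZNF483, a zinc finger protein, had −0.93 ± 0.14. In each of the 5 genes untreated replicate 2 lay beyond all 3 treated arrays, on their side.

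Array weights, which let each array count by its estimated precision, called 1971 genes with all 9 arrays (11.1% of all genes), 931 higher and 1040 lower at 200 ng/ml. In that fit untreated replicate 1 had a weight of 10.7, against 0.0399 for untreated replicate 2, 0.722 for untreated replicate 3 and 0.604, 1.26 and 2.22 for the treated arrays. The untreated mean was therefore close to a single array. Without untreated replicate 2, array weights called 0 genes.

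The genes were also grouped by function into 33 lists, and each list is set beside all genes by its counts and its median. Over all genes the median difference was 0.03 with all arrays and −0.02 without untreated replicate 2, and 9564 genes (54.1%) and 8346 genes (47.2%) were higher in the same order. These shares are the background of each count of higher members below, and several lists lie near them. They take no account of signal, on which the difference depended. From the dimmest to the brightest bin its median was −0.095, −0.088, 0.073 and 0.189 with all arrays. Without untreated replicate 2 it was 0.044, 0.076, −0.062 and −0.075. A count in a list of mostly bright genes is therefore not a trait of that list by itself. With all 9 arrays and the unmodified prior no member of any list passed.

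**Figure D4:**
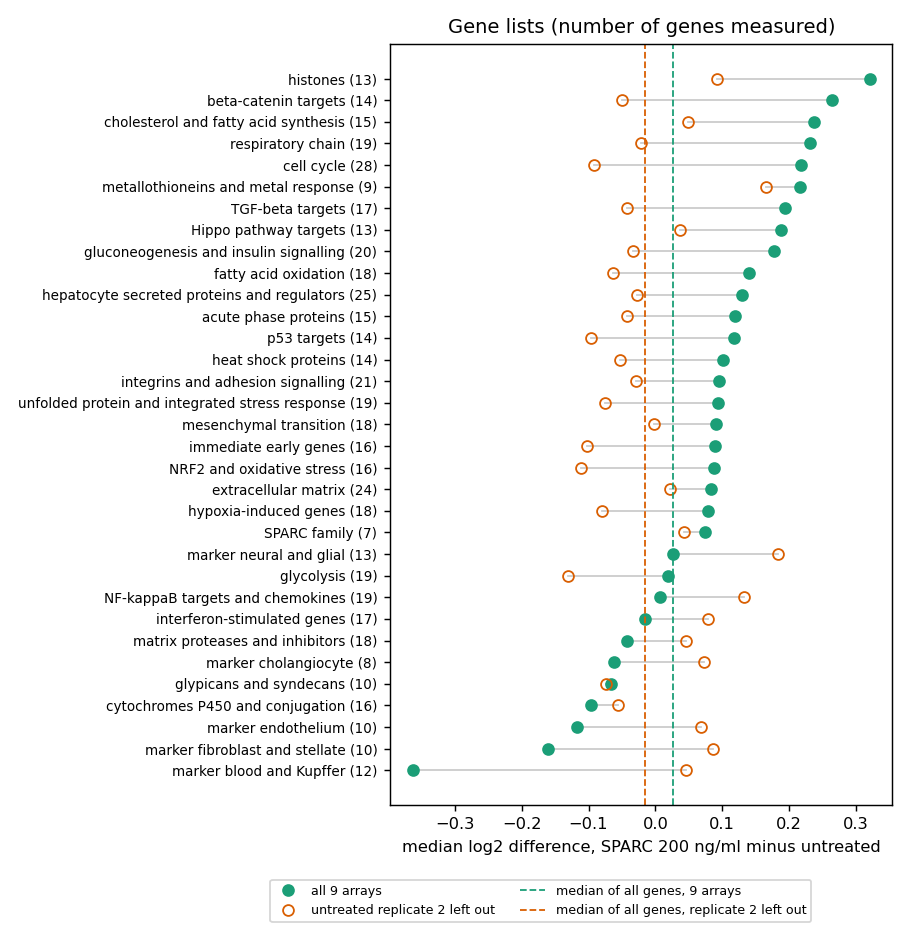
Median log2 difference, 200 ng/ml minus untreated (horizontal axis), of each gene list (vertical axis, with the number of genes measured), with all 9 arrays (filled) and without untreated replicate 2 (open). Cell cycle genes move from 0.22 to −0.09 and blood and Kupffer markers from −0.36 to 0.05, while metallothioneins stay at 0.22 and 0.17.

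Among genes nearest to the known action of SPARC, integrins and adhesion signalling genes had 14 of 21 members higher and a median of 0.09 with all arrays, and 8 of 21 higher and −0.03 without untreated replicate 2. Lower without overlap between groups were ITGA5, the fatty acid and thrombospondin receptor CD36, and STAB1, which encodes stabilin-1, the endocytic receptor of SPARC. That makes 3 of 21, beside 3.06% of all genes. CD36 had 5.53, 6.27 and 5.69 in untreated cells and 5.29, 5.40 and 5.37 at 200 ng/ml, a difference of −0.48 ± 0.21 (SE) that was −0.26 ± 0.11 without untreated replicate 2. STAB1 had 5.20, 6.20 and 5.53 against 5.17, 5.07 and 5.03, with −0.55 ± 0.27 and −0.28 ± 0.19. VCL, vinculin of focal adhesions, was the 1 member higher without overlap, at 8.94, 7.92 and 8.94 against 9.05, 9.04 and 9.16. The integrin-linked kinase ILK had 8.78, 8.17 and 8.87 against 8.78, 8.74 and 8.76, and the groups overlapped. CD36, STAB1 and VCL were chosen as the members without overlap.

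Extracellular matrix genes had 14 of 24 members higher in both fits, with medians of 0.08 and 0.02. FN1, fibronectin, was at 11.43, 11.01 and 11.38 in untreated cells and 11.44, 11.53 and 11.54 at 200 ng/ml. COL4A2, a chain of basement membrane collagen, had 6.44 and 6.31 in untreated replicates 1 and 3, 7.17 in replicate 2, and 6.85, 6.65 and 6.68 at 200 ng/ml. Its difference was 0.09 ± 0.24 (SE) with all arrays and 0.35 ± 0.14 without untreated replicate 2. COL1A2, a chain of fibrillar collagen, had −0.08 ± 0.33 and 0.38 ± 0.15 in the same order. Glypicans and syndecans had 4 of 10 higher and a median of −0.07 in the first fit, and 3 of 10 higher and −0.07 in the second. GPC6 was at −0.29 ± 0.11 (SE) without untreated replicate 2. SDC1, a syndecan, was the 1 member higher without overlap. Matrix proteases and their inhibitors had medians of −0.04 and 0.05.

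The transcript of SPARC itself had 4.05, 4.27 and 4.15 in untreated cells and 3.70, 3.92 and 3.51 at 200 ng/ml. The groups did not overlap, but the difference of −0.45 ± 0.52 (SE) was within its error, which the scattered 800 ng/ml arrays (4.18, 6.79 and 6.48) widened. Its 6 measured relatives overlapped between the groups. SPOCK2 had 0.07 ± 0.18 with all arrays, 0.16 ± 0.13 without untreated replicate 2 and −0.07 after quantile normalization. SMOC1 had 0.24 ± 0.22 and 0.02 ± 0.14 in the first 2 of these.

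Genes of NF-kappaB signalling and chemokines had 10 of 19 members higher and a median of 0.01 with all arrays, and 14 of 19 higher and a median of 0.13 without untreated replicate 2. In the second fit 2 members had an unadjusted p under 0.05, both lower, namely CCL20 and ICAM1, beside 6.03% of all genes. The members without overlap in all 6 arrays were higher, 2 of 19 beside 3.92% of all genes. NFKBIA, the inhibitor that NF-kappaB induces to end its own response, had 9.12, 8.08 and 9.26 in untreated cells and 9.30, 9.30 and 9.47 at 200 ng/ml. CXCL2, a neutrophil chemokine, had 5.05, 4.57 and 5.04 against 5.37, 5.13 and 5.51. Members of the list thus pointed both ways, and with the unmodified prior neither CCL20 and ICAM1 nor NFKBIA and CXCL2 passed. NFKBIA and CXCL2 had 0.17 ± 0.15 (SE) and 0.29 ± 0.15 without untreated replicate 2.

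To show what the promoters of these genes share, RefSeq windows of GRCh38.p14 of 300 bases around the start are printed 5′ to 3′ on the strand of the gene. Capitals mark matches on either strand to the kappaB consensus, a motif of 10 letters, which 11.3% of 35116 such windows hold. CCL20 is at chr2:227813592-227813891 (+), CXCL2 at chr4:74099146-74099445 (−) and NFKBIA at chr14:35404700-35404999 (−). In CXCL2 the marked run joins 2 overlapping matches.
CCL20: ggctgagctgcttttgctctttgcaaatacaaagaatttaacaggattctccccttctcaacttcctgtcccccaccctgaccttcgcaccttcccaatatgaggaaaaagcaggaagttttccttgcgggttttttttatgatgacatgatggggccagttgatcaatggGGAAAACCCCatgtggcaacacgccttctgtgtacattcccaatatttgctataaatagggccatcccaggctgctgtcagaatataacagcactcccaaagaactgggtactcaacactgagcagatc
CXCL2: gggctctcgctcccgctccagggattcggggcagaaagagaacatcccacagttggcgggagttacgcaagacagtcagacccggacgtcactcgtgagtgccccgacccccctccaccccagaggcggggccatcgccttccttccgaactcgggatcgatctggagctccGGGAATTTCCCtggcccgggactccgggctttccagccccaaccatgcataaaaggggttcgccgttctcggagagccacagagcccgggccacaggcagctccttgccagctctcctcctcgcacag
NFKBIA: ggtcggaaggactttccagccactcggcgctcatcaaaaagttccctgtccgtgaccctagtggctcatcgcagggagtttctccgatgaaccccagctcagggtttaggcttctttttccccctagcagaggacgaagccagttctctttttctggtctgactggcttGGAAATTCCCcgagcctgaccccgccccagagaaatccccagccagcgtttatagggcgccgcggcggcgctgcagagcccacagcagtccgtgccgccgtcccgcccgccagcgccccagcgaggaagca
Each of the 3 windows holds a match, as do the first listed windows of 11 of the 16 measured list members found in the table. The relation of the match to the direction of a difference was not tested. The ICAM1 window held no match to this strict consensus. It does hold TGGAAATTCC, which differs from the consensus in the first base only, and looser forms were not searched.

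Hypoxia-induced genes had 12 of 18 members higher and a median of 0.08 with all arrays, and 7 of 18 higher and −0.08 without untreated replicate 2. In the second fit 5 members were lower at an unadjusted p under 0.05, beside 6.03% of all genes, and 1 was higher. The mean signal of the list lay in the range of the third bin. There 401 of 4421 genes were lower at that p, against 116 of 4422 in the dimmest bin. KDM3A, a histone demethylase, had 5.13 and 5.52 in untreated replicates 1 and 3, 4.19 in replicate 2, and 4.43, 4.62 and 4.69 at 200 ng/ml. Its difference was −0.74 ± 0.15 (SE), and −0.36 ± 0.29 with all arrays. P4HA2, a prolyl hydroxylase of collagen, had −0.49 ± 0.15, and PDK1, the kinase that closes the entry of pyruvate into mitochondria, had −0.35 ± 0.11. BNIP3L and DDIT4 had −0.39 and −0.33, and ANKRD37 had 0.38. In all 6 genes untreated replicate 2 lay on the side of the treated arrays. SLC2A1, the main glucose transporter of hypoxic cells, was higher without overlap, at 9.46, 8.85 and 9.46 against 9.68, 9.62 and 9.67, and VEGFA had 8.54, 8.31 and 8.54 against 8.44, 8.53 and 8.31.

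The core of the hypoxia response element is ACGTG, which 21.4% of all windows hold on either strand. PDK1 has 2 listed windows, of which the first held no match. The second, at chr2:172555840-172556139 (+), held 2 and is printed with them in capitals.
PDK1: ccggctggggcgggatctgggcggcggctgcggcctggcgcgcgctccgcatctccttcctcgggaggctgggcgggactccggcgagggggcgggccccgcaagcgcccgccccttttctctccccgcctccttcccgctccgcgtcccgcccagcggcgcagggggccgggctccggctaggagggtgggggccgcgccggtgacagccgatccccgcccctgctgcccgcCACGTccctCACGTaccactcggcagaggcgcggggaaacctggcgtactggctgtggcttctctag
The 2 windows of KDM3A and the window of P4HA2 held no ACGTG, and ANKRD37, which was higher, held 3 matches. Both KDM3A windows do hold GCGTG, another form of the core that was not searched. The first listed window held ACGTG on either strand in 8 of the 15 list members found in the table, PDK1 not among them.

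Genes of insulin signalling and gluconeogenesis had 14 of 20 members higher with all arrays and 7 of 20 without untreated replicate 2. Apart from INPPL1 and ADIPOR2, IRS1, an adaptor of the insulin receptor, was higher without overlap, with 6.76, 5.52 and 6.99 in untreated cells and 7.09, 7.07 and 7.06 at 200 ng/ml. FOXO6, a forkhead factor restrained by insulin, was lower without overlap, at 5.50, 6.28 and 5.26 against 4.96, 5.23 and 5.24. G6PC1, which releases glucose from the liver, had 5.73, 4.84 and 6.30 against 5.70, 5.60 and 5.55, a difference of −0.40 ± 0.17 (SE) without untreated replicate 2 and of −0.01 ± 0.30 with it. PFKM, the muscle form of phosphofructokinase, had 0.64 ± 0.11 without untreated replicate 2 and −0.10 ± 0.47 with it. In fatty acid oxidation, ACADS, the short-chain acyl-CoA dehydrogenase, was higher without overlap, at 5.04, 4.72 and 5.23 against 5.68, 5.79 and 5.49, while the median of the list went from 0.14 to −0.06.

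Metallothioneins, which bind zinc and copper, and 2 zinc transporters were higher in 9 of 9 members with all arrays and in 8 of 9 without untreated replicate 2, with medians of 0.22 and 0.17. MT2A had 9.59, 8.58 and 9.67 in untreated cells and 9.89, 9.84 and 9.87 at 200 ng/ml, a difference of 0.58 ± 0.26 (SE), and of 0.24 ± 0.11 without untreated replicate 2. MT1X had 8.34 ± 0.29 against 8.76 ± 0.06 (SD, n = 3 each), and MT1M had 7.55, 7.73 and 7.53 against 7.92, 7.73 and 7.89. MT2A, MT1X and MT1M did not overlap between groups, 3 of 9 beside 3.92% of all genes, although the values of MT1M met at 7.73 to 2 decimals. Metallothionein copies are similar, so probes can bind more than 1 transcript, and the members are not independent. At 800 ng/ml MT2A had 9.84, 9.92 and 9.91.

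Histone genes had 11 of 13 members higher and a median of 0.32 with all arrays, and 9 of 13 higher and 0.09 without untreated replicate 2. Their copies are likewise near identical. H4C3 had 11.66, 11.40 and 11.60 in untreated cells and 11.82, 11.99 and 11.91 at 200 ng/ml, and 5 of 13 members were higher without overlap, beside 3.92% of all genes. H1-10 and H3-3B, which do not follow the S phase, were lower without untreated replicate 2, at −0.47 ± 0.18 (SE) and −0.29 ± 0.12. Cell cycle genes had 27 of 28 members higher with all arrays and 8 of 28 without untreated replicate 2. Untreated replicate 2 was below the mean of the other 8 arrays by 0.70 and 0.82 in the medians of the histone and cell cycle lists. Of the cell cycle list 6 of 28 members were higher without overlap, among them CDC20, an activator of the anaphase-promoting complex, at 9.66, 8.82 and 9.75 against 9.99, 9.77 and 10.06.

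Targets of the Hippo pathway had 10 of 13 members higher with all arrays and 8 of 13 without untreated replicate 2. PTPN14, a phosphatase that holds YAP in the cytoplasm, had 6.96, 6.28 and 7.05 in untreated cells and 7.55, 7.32 and 7.36 at 200 ng/ml. Its difference was 0.65 ± 0.22 (SE) and 0.40 ± 0.12 in the 2 fits. AMOTL1, an angiomotin, had 3.43 and 3.62 in untreated replicates 1 and 3, 5.87 in replicate 2, and 4.13, 4.06 and 3.93 at 200 ng/ml, so its difference turned from −0.27 ± 0.50 to 0.52 ± 0.12. The classical targets CCN1 and CCN2 had −0.08 and −0.04 without untreated replicate 2. TGF-beta targets had 15 of 17 members higher and then 6 of 17, with TGFBR1, a receptor chain, at 0.22 ± 0.40 and then −0.38 ± 0.15. In mesenchymal transition, CDH1, E-cadherin, had −0.04 ± 0.25 and −0.34 ± 0.13, and KRT18, a keratin of simple epithelia, was higher without overlap at 9.99, 9.25 and 10.02 against 10.21, 10.34 and 10.33.

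Of the remaining metabolic lists, cholesterol and fatty acid synthesis genes had 13 of 15 members higher with all arrays and 9 of 15 without untreated replicate 2, where ELOVL6, a fatty acid elongase, had −0.28 ± 0.11 (SE) and FDPS, a mevalonate pathway enzyme, −0.28 ± 0.11. The respiratory chain had 15 of 19 higher and then 9 of 19, with COX6C and SDHC at −0.44 ± 0.15 and −0.32 ± 0.12 in the second fit. PGD of the pentose phosphate route had −0.35 ± 0.12, and GLUL, glutamine synthetase and a beta-catenin target, had −0.23 ± 0.10. Among interferon-stimulated genes ISG20, an exonuclease, had 0.64 ± 0.20 and IRF9 had −0.34 ± 0.12. Each of these values is from the fit without untreated replicate 2, and each of these genes had untreated replicate 2 on the side of the treated arrays.

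Hepatocyte genes were present at high signal in both groups. Albumin (ALB), alpha-fetoprotein (AFP) and the apolipoprotein of HDL particles (APOA1) had differences of 0.09 ± 0.17, 0.38 ± 0.24 and 0.19 ± 0.19 (SE) with all arrays, and of 0.05, 0.11 and 0.07 without untreated replicate 2. The mean log2 signal of the 25 measured hepatocyte genes was 9.70, 9.35 and 9.64 in untreated cells and 9.58, 9.68 and 9.70 at 200 ng/ml. Markers of other cells had lower mean signals, and for endothelial, fibroblast, blood and neural lists the highest of the 6 arrays was untreated replicate 2. With no detection calls used here, no marker can be named as absent. The 10 endothelial markers had 4.37, 5.21 and 4.38 against 4.54, 4.41 and 4.45, and 10 of 10 had a negative difference with all arrays and 4 of 10 without untreated replicate 2. The 10 fibroblast and stellate markers had 4.67, 5.49 and 4.65 against 4.82, 4.76 and 4.75, with 9 of 10 and 2 of 10 negative in the same order. The 12 blood and Kupffer markers had 5.32, 6.17 and 5.27 against 5.41, 5.39 and 5.37, with 8 of 12 and 5 of 12 negative. The 13 neural and glial markers had 4.25, 4.92 and 4.39 against 4.57, 4.33 and 4.35, and the 8 cholangiocyte markers had 6.41, 6.49 and 6.32 against 6.53, 6.31 and 6.32. All arrays are of HepG2 cells, so these lists are given as signals and not as numbers of other cells. The part of these markers in the results was not tested.

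Without untreated replicate 2 the groups did not overlap for 5577 genes (31.5%), 2436 higher (13.8%) and 3141 lower (17.8%) at 200 ng/ml. The count rests on 2 untreated arrays, and with fewer arrays more genes separate by random order alone. Leaving out untreated replicate 3 as well gave 1206 genes with an unadjusted p under 0.05 and leaving out untreated replicate 1 gave 1596. Leaving out 1 treated array, in each case beside untreated replicate 2, gave 1720 to 2099 such genes.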

How the data were processed

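The authors deposited 1 table of log2 signals, with 1 value for each of 21448 transcript clusters in each of 9 arrays. The submitters' processing notes name R 3.0, while normalization, background correction and filters are not given there or in any other source used here. The log2 scale was inferred from the values, and depth has no counterpart on arrays, whose number limits the precision. The platform annotation gave 1 symbol to 17709 clusters, several to 0 and none to 3739. All 17709 matched RefSeq of GRCh38.p14 by Entrez identifier, which changed 0 symbols. The brightest cluster of each gene was kept, leaving 17687 genes. No pair of arrays held identical values.

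One limma 3.58.1 model (R 4.3.3; lmFit and eBayes with the default prior, two-sided) took all 3 groups, with and without untreated replicate 2. P-values were adjusted across the 17687 genes by Benjamini and Hochberg, and a call needed an adjusted p under 0.05. Intervals are 95% intervals of the moderated fit, and ± is the SE. No set test was run on the 33 lists, which held 557 genes, 507 of them measured.

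The members, lists and rules were chosen with earlier results of these data known. Named genes were the 10 smallest p with all arrays and the 5 smallest without untreated replicate 2. Added were the 12 highest positive and 12 lowest negative differences, by the fit without untreated replicate 2, among brighter genes without overlap in all 6 arrays, and up to 3 members of each list with an unadjusted p under 0.05 in that fit. The SPARC family, ALB, AFP and APOA1 completed the rule, and other genes were chosen after their values were seen. The procedure was tested on simulated data that held no outlying array and no signal-dependent shift. That test therefore cannot say how these features act on the fits. Alternatives were normalization, filters on dim genes, other priors, array weights, the replicate block, fewer arrays and each array left out.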

Additional observations from a re-analysis of the deposited data

How the results depend on the processing

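With all 9 arrays, 0 genes passed in each alternative except array weights, which called 1971. An unadjusted p under 0.05 was found for 315 genes, and for 138 to 2002 when 1 array was left out, the highest without untreated replicate 2 and the lowest without 200 ng/ml replicate 2. They numbered 626 after quantile normalization, 181 and 132 without the dimmest 25% and 50% of genes, where fewer genes were tested, 113 with only the 6 arrays compared and 5112 with array weights. The replicate number as a block gave 265 and called 0. The labels do not say whether the numbers pair samples. Same-numbered untreated and 200 ng/ml arrays deviated from their group means with correlations of −0.252, −0.253 and 0.0559. These cannot decide it, because untreated replicate 2 weighs heavily on its group mean. For 200 ng/ml replicate 1 the correlations were −0.252, 0.268 and −0.238 with untreated replicates 1, 2 and 3. Without untreated replicate 2, the trended robust prior called 28 genes and the other alternatives 0, and 1206 to 2099 genes had an unadjusted p under 0.05 with 1 more array left out. Including untreated replicate 2 gave 315, and the block gave 1881. Genes without overlap numbered 1234, and 2040 to 5577 with 1 array left out, where fewer arrays have to separate, 1780 after quantile normalization and 651 without the dimmest 50%. With that array kept, the differences of the genes named without it turned sign for COL1A2 (−0.0756), LIMS1 (0.0237), GPC6 (0.0475), TGFBR1 (0.22), AMOTL1 (−0.27), PDK1 (0.23), GLUL (0.0388), H1-10 (0.0402), PFKM (−0.098), ELOVL6 (0.0743), FDPS (0.0479), COX6C (0.0874), SDHC (0.16), PGD (0.12), VWF (−0.21), CLDN5 (−0.0685) and SLC1A2 (0.0268). With 1 array left out SPOCK1 ranged from −0.1686 to 0.1809, SPARCL1 from −0.0695 to 0.3097 and SPOCK2 from −0.0165 to 0.1608, and quantile normalization gave SPOCK2 −0.0661. The cause of these changes was not tested, other than the counts of genes and arrays named.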
